A study of Rattus norvegicus with 8 samples.

Results

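The genes described here are 10 genes of the reactive astrocyte: the intermediate filament genes Gfap, Vim and Nes, the genes of secreted proteins Lcn2, Serpina3n, Cp and Ptx3, the membrane protein genes Cd44 and Emp1, and the GTPase gene Gbp2. They were chosen by name, as the non-control spots of a rat array whose gene name is a member, and are 10 of 35250 gene names, measured by 26 spots of 17 probes. The array study asked how estradiol (E2) replacement changes the transcriptome of the dentate gyrus after status epilepticus (SE), a prolonged seizure. Total RNA came from adult female Sprague-Dawley rats that were ovariectomized 1 week before replacement and given kainic acid, a glutamate receptor agonist that induces SE. The 4 COS rats (castrated, oil, SE) received oil and the 4 CES rats (castrated, estradiol, SE) received estradiol, labelled EB in the sample records, and ovariectomy and SE were shared by all 8 rats. According to the sample records, estradiol was given as 4 doses of 2 µg at intervals of 24 h, 2 before and 2 after SE, kainic acid at 16 mg/kg, and SE was ended after 5 h with pentobarbital. The methods of the study give another kainic acid dose, another drug to end SE and another order of the injections, and place the collection of tissue at different times in different passages. Nothing in the files decides between these accounts, so the interval from SE to tissue is uncertain for every value below. Rats without SE were not analysed here, so a lower level in CES is lower than in COS and cannot be set against a rat without seizures.

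Astrocytes answer seizures and injury by reactive gliosis, in which cells enlarge and add intermediate filaments to their processes. Gfap is the filament protein that classically marks astrocytes, while vimentin and nestin are filament proteins of immature glia that reactive astrocytes take up again. Secreted acute phase proteins, the hyaluronan receptor CD44 and interferon-induced GTPases are made by reactive astrocytes too, and several of them also by microglia, endothelium or blood cells. In dissected tissue, fewer cells of a type and less RNA per cell cannot be told apart.

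Each array was hybridised with 2 rats of the same group, 1 labelled with Cy3 (replicates 1 and 3) and the other with Cy5 (replicates 2 and 4), so dyes were balanced and arrays were nested in groups. The 4 arrays lay on 1 slide. A spot was valid in a rat when its signal was at least 2 times its local background, which held for 30690 to 38553 of 43379 non-control spots per rat. Levels are log2 of the background-subtracted signal over the median of the valid spots of that rat, and differences are CES minus COS on that scale. They are given with limma's adjusted p over all genes tested and its moderated standard error. That error assumes 1 variance for both groups and draws it towards that of other genes. The groups varied unequally, for Vim with a standard deviation of 0.10 in COS and 1.66 in CES. With unequal variances the standard error was 0.83 rather than 0.61 for Vim and 1.05 rather than 0.79 for Cd44. Of 20825 genes, 28.6% were called lower in CES and 5.74% higher (5957 and 1195 genes), and the median difference over all genes was -0.25. That split depended on the scaling: with loess and Aquantile normalization 1943 genes were called lower and 2999 higher, and the median difference was 0.05. Each member's difference can be read against this shift, and the values called relative have it subtracted. The granule cell gene Neurod1 was well above background in all 8 rats, whereas Prox1, a defining gene of dentate granule cells, was not in any.

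Most of the reactive astrocyte genes were called lower in CES, with 1 CES rat, replicate 2, near the COS rats. Of 10 genes, 9 were quantified in all 8 rats, all 9 had a lower mean in CES, and 8 were called lower at an adjusted p under 0.05 (limma), against 28.6% of all genes. None of the 9 was called higher, against 5.74% of all genes, and none had CES values all above all COS values, against 1.55%. For 8 of the 9 genes all CES values lay below all COS values, which held for 19.7% of all genes tested. That count fell to 4 (Cd44, Cp, Emp1 and Nes) with loess and Aquantile, quantile or common-spot scaling, at 3 times background and in the deposited log2 table. The count of 8 called lower fell to 4 with loess and Aquantile, with common-spot scaling and in the deposited table, and to 0 without COS replicate 3. It was also 0 by the methods' t-test with unequal variances, where adjusted p of these 8 genes ran from 0.0950 to 0.221. The median difference of the 9 genes was -2.76, a relative difference of -2.51. The exceptions were Gfap, whose adjusted p was 0.0531, and Lcn2, whose groups overlapped in 1 rat. Ptx3 was too dim in 1 CES rat to enter the test.

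**Figure D1:**
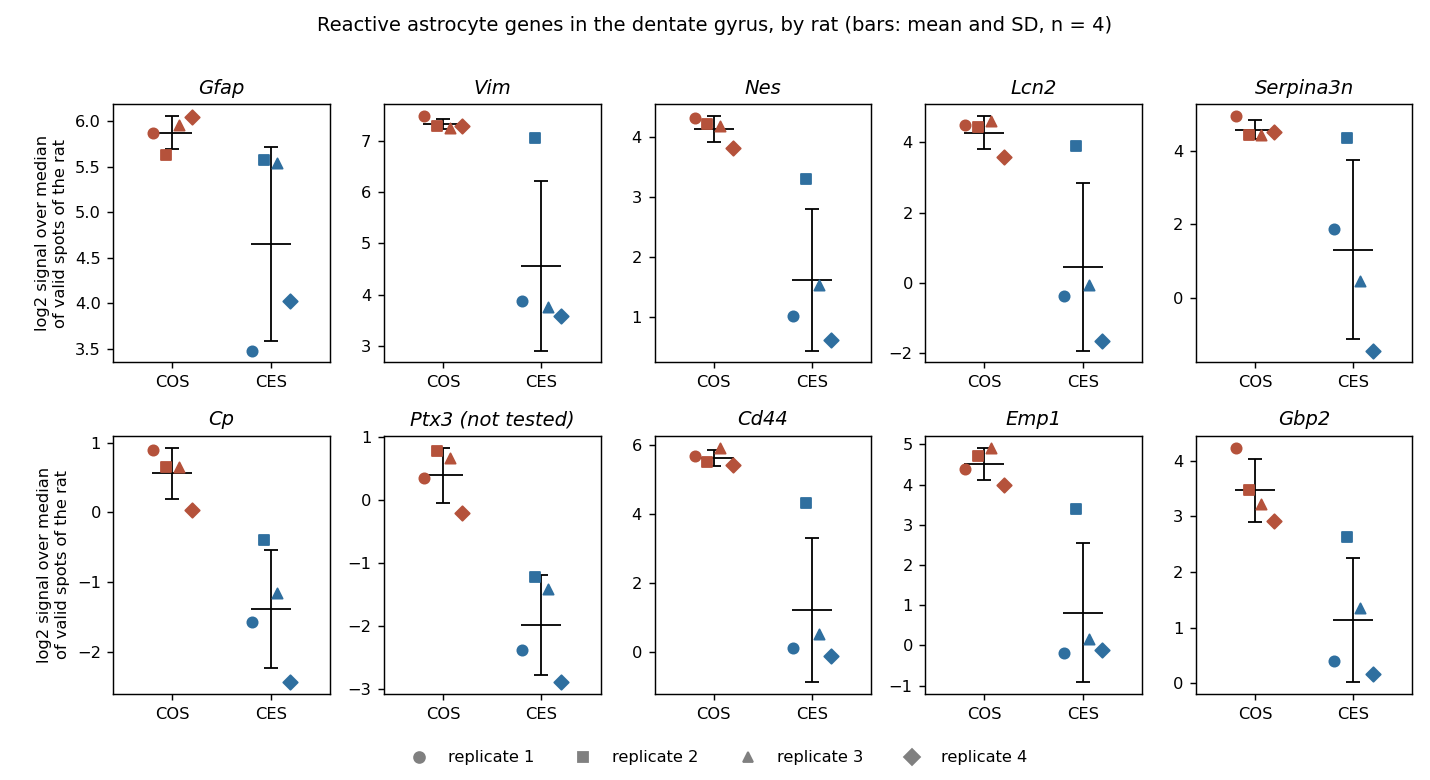
Levels of the 10 genes in each rat (y axis, log2 signal over the median of the valid spots of the rat) in the COS and CES groups on the x axis, with marker shapes for replicate numbers and bars for the mean and SD of 4 rats. The COS rats lie close together, 3 CES rats lie well below them for most genes, and CES replicate 2 lies near or just below the COS rats, for example at 7.05 for Vim.

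Some of the probes of these genes are shown, because the results rest on what the probes detect. Each is the 60 base sequence on the array, written 5′ to 3′ on the strand of the mRNA, with positions as the files give them for rat build rn4. The Vim probe lies at chr17:87851390-87851449 on the plus strand and is the single probe of that gene. The Gfap probe lies at chr10:92063083-92063142 on the minus strand and was designed on the epsilon splice form. The Cd44 probe spans an exon junction between the ends of chr3:88044582-88048264 on the minus strand. It is the dimmer of the probes of that gene and did not enter the values.
Vim: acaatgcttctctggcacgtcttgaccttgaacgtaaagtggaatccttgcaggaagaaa
Gfap epsilon: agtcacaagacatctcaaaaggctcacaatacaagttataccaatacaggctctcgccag
Cd44 junction: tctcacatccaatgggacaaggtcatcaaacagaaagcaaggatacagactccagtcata

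Vim encodes vimentin, a filament protein of glia, endothelium and fibroblasts. Its levels were 7.48, 7.30, 7.25 and 7.29 in COS replicates 1 to 4. They were 3.88, 7.05, 3.75 and 3.58 in CES replicates 1 to 4. The COS rats spanned a narrow range, 3 CES rats lay together far below it, and CES replicate 2 lay just under the lowest COS rat. The difference was -2.76 ± 0.61 (standard error, n = 4 rats per group, limma adjusted p = 0.0092), a 6.80-fold lower mean, and -2.51 relative to all genes. Leaving out COS replicate 3 (adjusted p = 0.0748) or CES replicate 1 (0.0509 in the same test) ended the call, as did loess and Aquantile normalization, scaling over common spots and the deposited log2 table (from 0.0510 to 0.0594). The methods' t-test ended it too (adjusted p = 0.165).

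Nes encodes nestin, a filament protein of neural stem cells, reactive astrocytes and growing endothelium. Its levels were 4.31, 4.21, 4.19 and 3.82 in the COS rats and 1.02, 3.30, 1.54 and 0.62 in the CES rats. All CES rats lay below all COS rats, with CES replicate 2 the highest of its group. The difference was -2.51 ± 0.48 (standard error, n = 4 per group, limma adjusted p = 0.0053), a 5.71-fold lower mean. The call was lost without COS replicate 3 (adjusted p = 0.0571). The gene was measured by a pair of probes that moved alike, with differences of -2.40 and -3.02, each with all CES values below all COS values.

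Gfap encodes glial fibrillary acidic protein, the main filament of astrocytes. Its levels, averaged over the spots of its probes, were 5.87, 5.63, 5.96 and 6.04 in the COS rats and 3.48, 5.58, 5.54 and 4.02 in the CES rats. CES replicates 2 and 3 lay just under the lowest COS rat, and CES replicates 1 and 4 lay clearly below. The difference was -1.22 ± 0.44 (standard error, n = 4 per group), or -0.97 relative to all genes, and did not pass (limma adjusted p = 0.0531). The groups overlapped when spots that the scanner software marked as outliers were kept, where the difference was -1.19 with an adjusted p of 0.0618. They also overlapped with normexp, the processed signal, loess and Aquantile, quantile and common-spot scaling, at 3 times background and in the deposited table. Without CES replicate 1 the difference was -0.75. Without CES replicate 2, 3 or 4 the gene was called lower, with adjusted p of 0.0091, 0.0071 and 0.0320 in that order. In these 3 fits the correlation estimated for the rats of an array was -0.03, -0.40 and -0.42, against -0.01 with all rats. The standard errors were 0.39, 0.31 and 0.34, against 0.44. The part of these estimates in the calls was not tested.

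The Gfap probes did not give the same size of difference. The probe of the common transcript, at chr10:92060835-92060894 on the minus strand, was printed in 10 spots, of which 7 carried no outlier mark. It read 5.95, 5.72, 6.08 and 6.17 in the COS rats and 3.62, 5.69, 5.71 and 4.18 in the CES rats, a difference of -1.18, and CES replicates 2 and 3 came close to the lowest COS rat. The epsilon probe, shown above, read 5.20, 4.70, 4.62 and 4.55 in the COS rats. It read 1.77, 4.29, 2.48 and 1.58 in the CES rats, a difference of -2.24. CES replicate 3 was near COS in the common probe and low in the epsilon probe, whereas CES replicate 2 was near COS in each of them. The epsilon form is a splice variant with another tail, known from neural stem cells and subsets of astrocytes, and its probe is a single spot. The epsilon minus common log2 signal within a rat was lower in CES by 1.06 on average (-2.27 against -1.21). This difference did not pass an exact permutation test (two-sided p = 0.0857, 4 against 4 rats, where the smallest possible p is 0.0286), and the test was chosen after the values were seen. On leaving out a rat it ran from -0.74 (without CES replicate 3) to -1.35 (without CES replicate 2). The exact permutation p was 0.0286 without CES replicate 2, the smallest possible there, and from 0.0857 to 0.2 without each other rat.

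**Figure D2:**
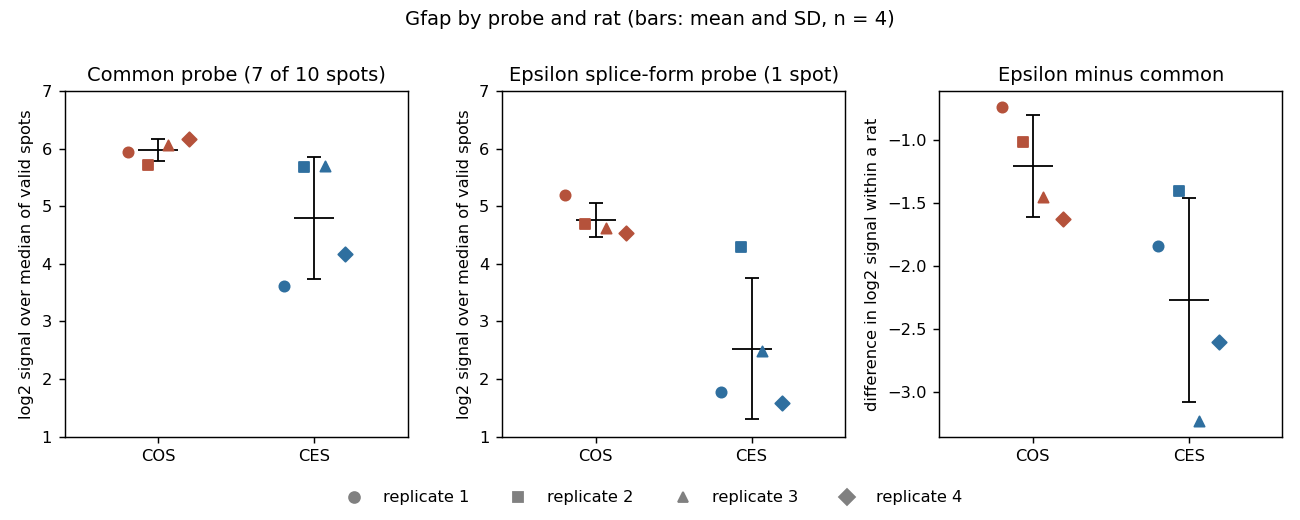
Gfap in each rat by probe: log2 signal of the common probe (left) and of the epsilon splice-form probe (middle), and the epsilon minus common log2 signal within each rat (right), with bars for the mean and SD of 4 rats. CES replicate 3 (triangle) lies near the COS rats at 5.71 in the common probe and far below them at 2.48 in the epsilon probe.

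Among the secreted proteins, Lcn2 encodes lipocalin 2, an iron siderophore-binding protein of inflammation and a widely used marker of reactive astrocytes. Its levels were 4.49, 4.44, 4.59 and 3.58 in the COS rats. They were -0.37, 3.88, -0.05 and -1.64 in the CES rats. CES replicate 2 lay above COS replicate 4, the lowest of its group, and the other CES rats lay far below every COS rat. The difference was -3.82 ± 0.93 (standard error, n = 4 per group, limma adjusted p = 0.0131), a 14.1-fold lower mean. Leaving out COS replicate 3 or CES replicate 1 ended the call (adjusted p of 0.0966 and 0.0674), as did the 4 other scalings (loess and Aquantile, quantile, common spots and the deposited table) and the lack of a filter on valid spots, with adjusted p from 0.0584 to 0.0658. The methods' t-test ended it too (adjusted p = 0.169).

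Serpina3n encodes a serine protease inhibitor of the acute phase. Its levels were 4.96, 4.44, 4.43 and 4.53 in the COS rats and 1.87, 4.37, 0.45 and -1.45 in the CES rats. CES replicate 2 was only just under the lowest COS rat, and the other 3 CES rats were spread over a wide range below it. The difference was -3.28 ± 0.96 (standard error, n = 4 per group, limma adjusted p = 0.0258), a 9.72-fold lower mean. This was the least steady of the calls: it was lost on leaving out any of 6 of the 8 rats and under 7 of 15 other alternatives, where adjusted p reached 0.221. It was kept without CES replicate 2 and without CES replicate 4, where the difference was -4.51 and -1.91.

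Cp encodes ceruloplasmin, a copper-binding ferroxidase that astrocytes carry on their surface and secrete. Its levels were 0.89, 0.65, 0.65 and 0.03 in the COS rats and -1.56, -0.40, -1.16 and -2.43 in the CES rats. All CES rats lay below all COS rats, and CES replicate 2 was again the highest of its group. The difference was -1.95 ± 0.37 (standard error, n = 4 per group, limma adjusted p = 0.0056), a 3.86-fold lower mean. The 3 ceruloplasmin probes gave differences of -1.83, -1.79 and -2.19, and each was well above background in all COS rats but in 2 of the CES rats. With normexp background correction the difference was -1.06 and did not pass (adjusted p = 0.0933), and it also did not pass without COS replicate 3 (adjusted p = 0.0549). Nor was Cp called by the methods' t-test (adjusted p = 0.0950). Another probe with the gene name Cp, described in the files as bilitranslocase, was not valid in all rats and did not enter.

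Ptx3 encodes pentraxin 3, a pattern recognition protein induced by injury and ischemia. Its single probe, at chr2:156094523-156094582 on the plus strand, read 0.34, 0.78, 0.66 and -0.20 in the COS rats. It read -2.38, -1.22, -1.41 and -2.89 in the CES rats, all below all COS rats. The spot was valid in 4 COS and 3 CES rats, and clearly above background in 4 and 2 of them, so the gene did not enter the test. With no filter on valid spots the difference was -2.37 ± 0.44 (standard error, n = 4 per group, limma adjusted p = 0.0321).

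Of the membrane proteins, Cd44 encodes a receptor for hyaluronan that is carried by reactive astrocytes, microglia and blood cells. Its levels were 5.67, 5.50, 5.92 and 5.41 in the COS rats and 0.10, 4.32, 0.52 and -0.12 in the CES rats. All CES rats lay below all COS rats, and CES replicate 2 lay far nearer to COS than to the rest of its group. The difference was -4.42 ± 0.79 (standard error, n = 4 per group, limma adjusted p = 0.0047), a 21.4-fold lower mean, the largest difference of the 9 genes. The call was lost without COS replicate 3 (adjusted p = 0.0522). These values come from a probe near the transcript's end, at chr3:88023965-88024025 on the minus strand. The junction probe shown above was well above background in none of the COS rats and in 1 CES rat, and was not used.

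Emp1 encodes epithelial membrane protein 1, a tetraspan protein found in the reactive astrocyte signature. Its levels were 4.40, 4.70, 4.92 and 4.00 in the COS rats and -0.19, 3.40, 0.16 and -0.11 in the CES rats. CES replicate 2 lay under the lowest COS rat and far above the other CES rats, which lay together. The difference was -3.69 ± 0.66 (standard error, n = 4 per group, limma adjusted p = 0.0047), a 12.9-fold lower mean. The call was lost without COS replicate 3 (adjusted p = 0.0526). A dimmer Emp1 probe was well above background in all 4 COS rats and in none of the CES rats.

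Gbp2 encodes guanylate binding protein 2, a GTPase induced by interferon that is listed with the reactive astrocyte genes linked to inflammation. Its levels were 4.23, 3.48, 3.22 and 2.92 in the COS rats and 0.40, 2.63, 1.35 and 0.17 in the CES rats. All CES rats lay below all COS rats, but CES replicate 2 was close to the lowest COS rat. The difference was -2.33 ± 0.50 (standard error, n = 4 per group, limma adjusted p = 0.0080), a 5.02-fold lower mean. The call was lost without COS replicate 3 (adjusted p = 0.0659) and with loess and Aquantile normalization, common-spot scaling or the deposited table (adjusted p from 0.0538 to 0.0576). The methods' t-test ended it too (adjusted p = 0.105).

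CES replicate 2 stood apart from its group across these genes. The median of the 9 genes relative to the rat's median gene was 3.42, 3.66, 3.39 and 3.51 in the COS rats and -0.18, 3.46, -0.27 and -0.36 in the CES rats. Placed between the mean of the other 3 CES rats (0%) and the COS mean (100%), CES replicate 2 lay from 58.0% for Cp to 94.8% for Serpina3n, with 92.2% for Vim and 92.1% for Lcn2. CES replicate 1 was hybridised to the same array and CES replicate 4 carried the same dye, and both were low. Why CES replicate 2 stood apart was not tested. Without CES replicate 2 all 9 genes were called lower, Gfap included, as were 6870 of 20825 genes over the array. That rat stood out by its values in these same genes, so the stronger calls without it are not separate evidence. The median difference of the 9 genes was then -3.62, a relative difference of -3.35. The largest difference there was that of Cd44, -5.52 (limma adjusted p = 1.37e-07, 4 against 3 rats), and the smallest that of Gfap, -1.56 (adjusted p = 0.0091).

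COS replicate 3 had the opposite weight in the test. Without it none of the 9 genes was called (limma, adjusted p from 0.0522 to 0.225), although 8 were under 0.05 before adjustment, and the median difference was -2.63, close to the value with all rats. The genes called lower over the whole array then fell from 5957 to 1142. Without CES replicate 1 there were 5 members called. The direction was the same for every member tested under each of the 23 alternatives, some of which change only the test, and none was called higher. Under the strictest filter on dim spots Cp could not be tested.

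**Figure D3:**
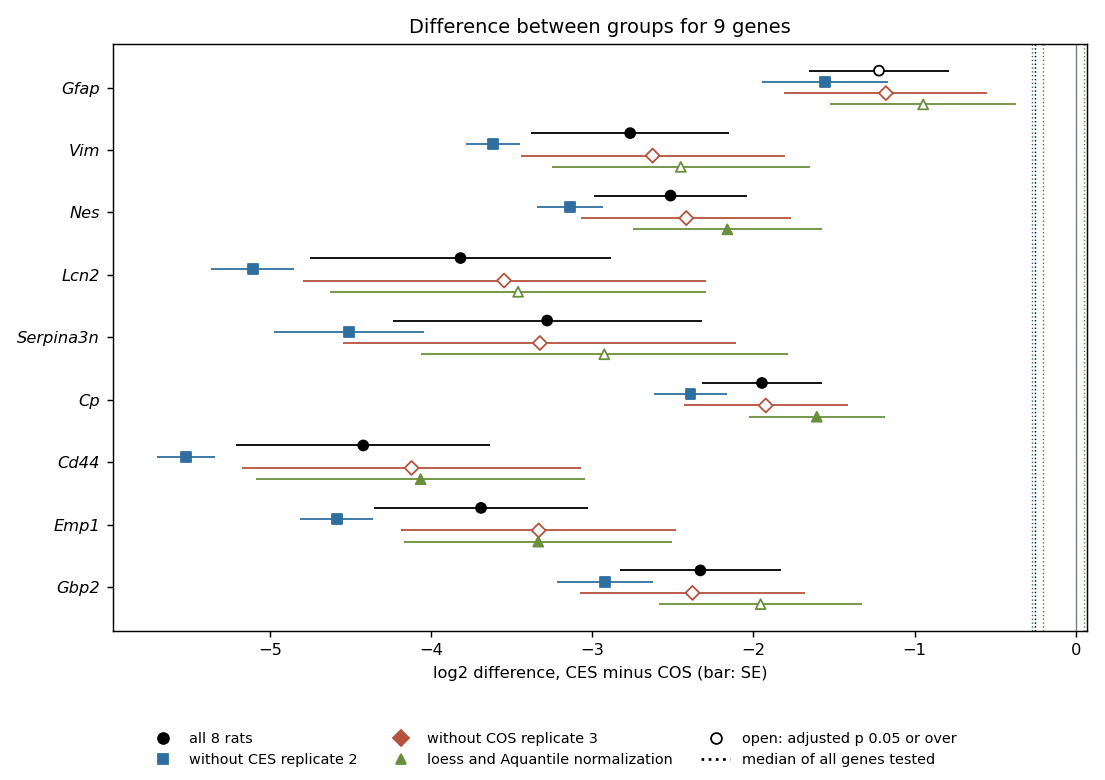
Difference between groups (x axis, log2, CES minus COS, bars for the standard error) of the 9 quantified genes with all 8 rats, without CES replicate 2, without COS replicate 3, and with loess and Aquantile normalization. Filled symbols have an adjusted p under 0.05 and dotted lines mark the median of all genes. All points lie below 0: all 9 are filled without CES replicate 2, and none is without COS replicate 3.

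The rat-to-rat spread within groups was shared between the genes with all 8 rats, and less so without CES replicate 2. After the group mean was removed from each gene, the Pearson correlation over the 8 rats ran from 0.755 to 0.990 (median 0.905) for the 28 pairs of 8 genes other than Gfap. Gfap was looser, with correlations from 0.397 with Serpina3n to 0.720 with Gbp2. These are descriptions over 8 rats that share arrays and dyes, and without CES replicate 2 the 28 correlations, over 7 rats with the group means removed again, ran from -0.202 to 0.974 (median 0.620).

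Promoter sequences are shown because most of these genes were called lower in CES. STAT3 and AP-1 factors are also known regulators of astrocyte reactivity. RefSeq promoters (build GRCr8, 250 bases before to 50 after the start) were found for all 10 genes and searched on both strands for the STAT-type palindrome TTCNNNGAA, the AP-1 motif TGANTCA and the palindromic estrogen response element. Of 33469 promoters in the table, 8.87% held the STAT-type motif, 7.33% the AP-1 motif and 0.03% the estrogen response element. The STAT-type letters were found in 2 of the 10 genes, Serpina3n and Emp1, and the AP-1 letters in 2, Gbp2 and Emp1, and the estrogen response element in none. The 250 bases before the start of these genes are given with matches in capitals, and in Emp1 the second AP-1 match overlaps the second STAT-type match. All lie on the plus strand, at chr6:129088142-129088391 for Serpina3n, chr2:234005477-234005726 for Gbp2 and chr4:169943980-169944229 for Emp1. A match of letters is a description of the sequence and not a measured site.
Serpina3n: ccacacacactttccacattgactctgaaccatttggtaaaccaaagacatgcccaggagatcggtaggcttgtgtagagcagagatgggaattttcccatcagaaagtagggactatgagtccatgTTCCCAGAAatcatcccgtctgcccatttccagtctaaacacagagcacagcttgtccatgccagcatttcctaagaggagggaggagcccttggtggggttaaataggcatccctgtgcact
Gbp2: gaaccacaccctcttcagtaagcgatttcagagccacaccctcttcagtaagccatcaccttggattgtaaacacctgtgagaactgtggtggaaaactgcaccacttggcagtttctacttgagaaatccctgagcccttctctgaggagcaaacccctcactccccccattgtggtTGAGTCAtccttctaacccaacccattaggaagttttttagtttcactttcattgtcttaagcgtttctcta
Emp1: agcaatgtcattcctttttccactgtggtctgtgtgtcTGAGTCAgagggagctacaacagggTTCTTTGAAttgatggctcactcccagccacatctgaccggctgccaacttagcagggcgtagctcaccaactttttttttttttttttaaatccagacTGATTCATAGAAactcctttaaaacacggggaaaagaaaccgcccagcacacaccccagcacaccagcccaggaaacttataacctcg

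Other genes of reactive astrocytes were read from lists made with earlier results of these data known. Of the other pan-reactive genes 5 of 7 were tested and all 5 were called lower in CES, against 28.6% of all genes, with a median difference of -3.70. Timp1, an inhibitor of metalloproteinases, differed by -4.20 (limma adjusted p = 0.0080), the chemokine gene Cxcl10 by -4.05 (adjusted p = 0.0063) and the asparaginase gene Aspg by -3.70 (adjusted p = 0.0090). The summed signal of the list was 502 to 671 times the median spot in the COS rats and 9.96 to 403 in the CES rats, the highest being CES replicate 2. Of the set linked to ischemia 8 genes were tested and 7 called lower, among them Cd14, a co-receptor for endotoxin (-5.05, adjusted p = 0.0042), the cytokine gene Clcf1 (-4.11, adjusted p = 0.0053) and the sphingosine kinase gene Sphk1 (-2.93, adjusted p = 0.0044). In the CES rats Sphk1 was well above background in 1 rat, Clcf1 in 3, and Cxcl10 in 2. Of the set linked to inflammation 8 were tested, 6 called lower and 1 higher. Psmb8, an immunoproteasome subunit, was lower (-2.05, adjusted p = 0.0075), as were the matrix gene Fbln5 (-1.77, adjusted p = 0.0059) and the proteoglycan gene Srgn (-1.34, adjusted p = 0.0033), with Fbln5 well above background in 2 CES rats. Amigo2, an adhesion molecule, was higher in CES by 0.95 (adjusted p = 0.0070). With loess and Aquantile normalization 3, 5 and 3 genes of these lists were called lower, and without COS replicate 3 there were 1, 3 and 2, in the order pan-reactive, ischemia and inflammation. With normexp there were 3, 4 and 1. Over all 20825 genes the lower calls also fell, from 5957 to 1943 with loess and Aquantile, 1142 without COS replicate 3 and 492 with normexp.

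Of 8 other intermediate filament and linker genes, 7 were tested and 4 called lower, against 28.6% of all genes. These included the muscle filament gene Des (-1.90, adjusted p = 0.0061) and the neuronal filament genes Prph (-1.52, adjusted p = 0.0033) and Nefl (-0.82, adjusted p = 0.0101). The neuronal filament genes Nefm, Nefh and Ina went the other way, by 0.51, 0.24 and 0.09, and were not called (limma adjusted p = 0.0863, 0.319 and 0.729). After loess and Aquantile normalization, 3 of the 7 passed as lower and 2 as higher, and 1 passed as lower without COS replicate 3 and with normexp. Of 13 tested genes of signals and factors upstream of astrocyte reactivity, 10 were called lower, against 28.6% of all genes, and none higher. The count was 6 with loess and Aquantile, and 2 without COS replicate 3 and with normexp. Lower calls over the whole array also fell in these settings, as given above. The genes called lower included Il1b (-2.47, adjusted p = 0.0038), the cytokine gene Clcf1 named above, and Stat3, a factor activated by the family of Clcf1 (-2.07, adjusted p = 0.0045). Clcf1 and Stat3 are also counted in the set linked to ischemia. Il1b was well above background in 3 rats of the COS group and 2 of the CES group, and Il6, Osm and Tnf were not valid in all rats.

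**Figure D4:**
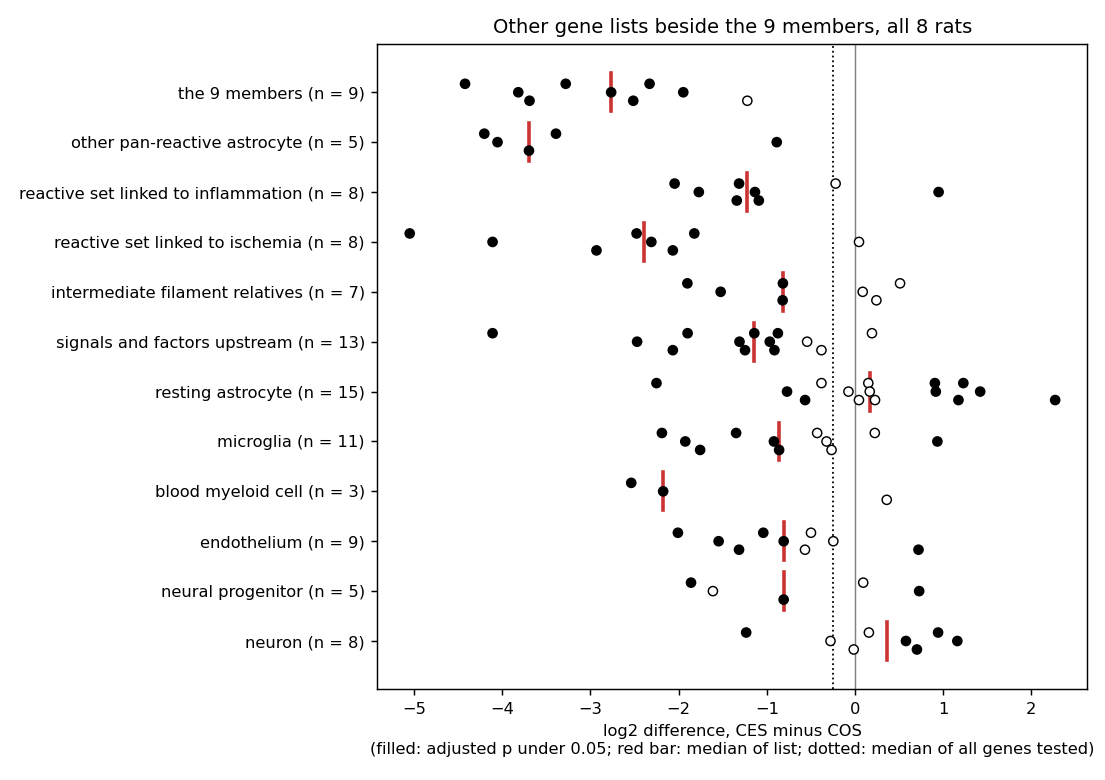
Difference between groups (x axis, log2, CES minus COS) of each tested gene of the 9 quantified members and of other gene lists (y axis), with all 8 rats. Filled points have an adjusted p under 0.05, red bars mark the median of a list and the dotted line the median of all genes, -0.25. The reactive lists lie to the left of that line, with medians from -1.22 to -3.70, and the resting astrocyte list has a median of 0.17.

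Resting astrocyte genes did not follow the reactive genes as a block. Of 15 tested, 6 were called higher in CES, against 5.74% of all genes, and 3 lower, against 28.6%. Gjb6, the gene of the gap junction protein connexin 30, was higher by 2.27 (limma adjusted p = 0.0070), with 1.99, 2.01, 1.19 and 0.75 in the COS rats and 4.06, 2.15, 4.37 and 4.44 in the CES rats. CES replicate 2 was just above the highest COS rat. Aldh1l1, a folate enzyme used as a general astrocyte marker, was higher by 1.23 (adjusted p = 0.0060). Glul, glutamine synthetase, was lower by a difference of -0.77 (adjusted p = 0.0117). The largest difference downward was that of S100b, a calcium-binding protein gene, at -2.25 (adjusted p = 0.0454), whose groups overlapped. The glutamate transporter gene Slc1a3 differed by -0.07 (adjusted p = 0.777) and the water channel gene Aqp4 by 0.04 (adjusted p = 0.871). The summed signal of the list was 303 to 385 in the COS rats, 464 to 519 in 3 CES rats and 284 in CES replicate 2. After loess and Aquantile normalization 5 passed as higher and none as lower, with normexp 3 and none, and without COS replicate 3 none was called either way. Over all 20825 genes these settings called 2999, 139 and 285 higher and 1943, 492 and 1142 lower, in that order.

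Markers of other cells that can hold the same transcripts were counted in the same way, to be read against 28.6% of all genes called lower and 5.74% higher. Of 11 microglial genes tested, 6 were called lower and 1 higher, among them Cd68 (-2.19, adjusted p = 0.0043), Itgam (-1.92, adjusted p = 0.0109) and C1qc (-1.76, adjusted p = 0.0066), and the summed signal was 209 to 313 in the COS rats and 86.5 to 174 in the CES rats. P2ry12, a gene of resting microglia, was the one called higher (0.93, adjusted p = 0.0078), and Tmem119 was well above background in none of the COS rats and in 1 CES rat. Of 8 blood myeloid genes 3 were tested and 2 called lower, Lyz2 by -2.54 and Plac8 by -2.18, with summed signals of 70.3 to 126 and 14.2 to 35.3, and Ccr2 and Mpo were not well above background in any rat. Of 9 endothelial genes 5 were called lower and 1 higher, with Vwf at -2.01, Esam at -1.55, Flt1 (well above background in 2 CES rats) at -1.04 and Slco1a4 at 0.72, and summed signals of 54.2 to 83.3 and 26.5 to 57.2. Pecam1 was not well above background in any rat. Of 5 neural progenitor genes 2 were called lower and 1 higher, with Hopx at -1.86, and summed signals of 58.4 to 64.8 and 25.3 to 32.9. Of 4 ependymal genes 3 were called lower, with Foxj1 at -1.54, and summed signals of 13.9 to 17.8 and 5.39 to 9.38. Of 6 mural genes 3 were called lower and 1 higher, with Pdgfrb at -1.25, Kcnj8 at -1.25 and Rgs5 at 0.79, and summed signals of 54.9 to 84.8 and 41.1 to 62.2. Of 8 meningeal genes 2 were called lower, Col1a2 among them with a relative difference of -0.75, and 1 higher. Of 8 oligodendrocyte genes 1 was called higher, and of 8 neuronal genes 4 were called higher, Camk2a at 0.94 among them, and 1 lower. None of 8 choroid plexus genes was called, and their summed signal, 23.7 to 693 in the COS rats and 24.4 to 209 in the CES rats, was highest in COS replicate 2. Without COS replicate 3 the lower calls fell to 1 for microglia, blood myeloid cells, neural progenitors, ependyma and mural cells and to 0 for endothelium and meninges, and the higher calls of neuronal genes to 1. With loess and Aquantile normalization there were 2 lower calls for microglia and for endothelium, and 1 for blood myeloid cells, neural progenitors, ependyma and mural cells. With normexp there were 2 for blood myeloid cells and endothelium, 1 for microglia, neural progenitors and ependyma, and 0 for mural cells. The counts in these settings are not to be read against 28.6%. Over all 20825 genes 1142, 1943 and 492 were called lower there, and 285, 2999 and 139 higher, in the same order of settings. The part of other cells in the lower levels of the 10 genes was not tested.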

How the data were processed

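The authors deposited, per array channel, scanner intensity (mean and background signal of each spot, from Agilent Feature Extraction 10.7.3.1, per the labels) and log2 values, which equal log2 of the median signal minus background, less a constant per channel. Spots marked as outliers (1593) and control spots were left out here. Valid spots had a foreground of at least 2 times background. Mean signal minus background median was divided by the median of valid spots of the channel, averaged per gene and set to log2. CES and COS were compared with limma 3.58.1 in R 4.3.3 (statmod 1.5.0, data.table version 1.17.8), two-sided, with Benjamini-Hochberg adjustment at 0.05. Dye was a fixed term and array a random block (duplicateCorrelation). The correlation estimated for the rats of an array was -0.01, so they counted as nearly independent. The fit was tested on simulated data with the same variance in both groups and few changed genes. That test does not cover the unequal variances of these data. The methods' t-test, other normalizations, filters and left-out rats were alternatives. The number of arrays (4) limits precision, and the median standard error was 0.20.

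Probes were named through RefSeq accessions (17512 of 41012), otherwise by the files. All 10 members were named, each probe by itself, and from each list up to 3 genes with the largest difference among those called without overlap of the groups, and further genes of a list were named after their values were seen. Members and lists were chosen with earlier results of these data known. Samples of the same replicate number deviated together (correlations from 0.214 to 0.346), but the number is tied to the dye, and samples of another number with the same dye did so too (0.208 to 0.441). The labels call the samples biological replicates.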

Additional observations from a re-analysis of the deposited data

Results flagged for a closer look

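In groups of 4 rats, a value was picked out when its gap to the nearest other rat exceeded Dixon's critical share of the group's range, and chance does this in about 1 of 20 groups. Over 22 groups, 5 were picked out. CES replicate 2 was the highest of its group for Cd44 (0.856 of the range), Emp1 (0.903) and Vim (0.914), and for the median of the 9 quantified genes relative to each rat's median gene (0.953). These share the same rat and are not independent. COS replicate 4 was the lowest of its group for Lcn2 (0.852 of the range), at 3.58 against 4.44 or more in the other COS rats.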

How the results depend on the processing

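All 226 values of single genes and of the Gfap probes computed under the alternatives kept a negative sign, but many of them could not change. Changes of the array block, dye term, replicate block or t-test leave each difference as it is, and a constant per rat cancels between the Gfap probes. No member was called higher under any of the 23 alternatives. The median difference of the members relative to all genes ran from -2.73 to -2.40 under changes of processing and from -3.35 to -1.76 on leaving out a rat. The counts of calls depended more on the processing. Of 9 members, 8 were called lower, but 4 with loess and Aquantile normalization, with scaling over spots valid in all 8 rats and in the deposited log2 table, and 0 by the methods' t-test after adjustment, where 7 members and 5909 genes were under 0.05 unadjusted. Leaving out a rat gave from 0 (without COS replicate 3) to 9 members called lower (5 without CES replicate 1) and 0 called higher. Genes called lower (5957) and higher (1195) over the array became 492 and 139 with normexp, 1943 and 2999 with loess and Aquantile, 2257 and 3023 with quantile normalization, 1783 and 3384 with scaling over common spots, 1927 and 3213 in the deposited table, 2825 and 404 with no filter, 2811 lower at 3 times background, and 0 and 0 by the methods' t-test. Leaving out a rat gave from 1142 to 6954 genes called lower and from 285 to 1812 higher. The lower count moved by over 1.5 times without COS replicate 1, 2 or 3 or CES replicate 1, to 3635, 3959, 1142 and 2563. Higher calls were 497, 285, 522 and 536 without COS replicates 1, 3 and 4 and CES replicate 1, and 1812 without CES replicate 2. With the replicate block in place of the dye term, 8 members were called lower, as were 6055 genes, with 1050 higher, and no call of a member changed. Without the dye term all 9 members were called. The correlation estimated for the rats of an array also moved, from -0.01 in the reported setting to -0.51 without the dye term. It was 0.21 without COS replicate 3, 0.24 with loess and Aquantile and 0.56 with normexp. The cause of these shifts was not tested. Leaving outlier spots out was listed as an alternative and was made the reported setting once the data had been seen; with these spots kept, chosen as an alternative after seeing the data, 8 members were called lower, and 6054 genes lower and 1238 higher. Dim spots limit Cp, Ptx3, Il1b, Cxcl10, Fbln5, Flt1 and Sphk1, each well above background in 2 CES rats or fewer.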
